A study of Bos taurus with 3 samples.

Results

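The WNT pathway was described in BFF116 cells, bovine fetal fibroblasts that serve as nuclear donors in somatic cell nuclear transfer. Its members were all rows of the gene count table whose symbol is that of a WNT ligand, a frizzled (FZD), LRP5/6 or ROR receptor, a secreted modulator (SFRP, FRZB, DKK, WIF1), an R-spondin with its receptors and ligase (RSPO, LGR, RNF43), the acyltransferase PORCN, or an intracellular effector (DVL, AXIN, APC, GSK3, CTNNB1, TCF/LEF). This choice by name gave 61 of 31903 listed genes and used no measured value, although earlier results of these data were known. The series holds 1 group of 3 biological replicates, each made from 70000 cultured cells that were deprived of serum for 48 h before harvest, a treatment that synchronizes the cell cycle. No untreated or unstarved cells were measured. Genotype, sex and fetal age of the line are not in the labels, nor is it stated whether the replicates are separate cultures, so part of their spread may be technical.

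WNT proteins are secreted lipid-modified ligands. In the canonical branch a WNT bridges a frizzled receptor and LRP5 or LRP6, which halts the complex of AXIN, APC and GSK3 that otherwise marks beta-catenin (CTNNB1) for destruction, and stabilized beta-catenin then acts in the nucleus with TCF/LEF factors. Other branches run through frizzleds with ROR receptors and steer cell polarity and movement, while secreted proteins outside the cell bind WNTs or block LRP5/6. In fibroblasts the pathway is known for its part in matrix production, wound repair and patterning of connective tissue.

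Gene counts totalled 8608350, 4842331 and 7122651 reads in replicates 1 to 3, and triplets of values below follow that order. Levels are given as CPM, gene counts after scaling by effective library size, without correction for transcript length. An order of CPM values or read totals between different genes is therefore not an order of transcript levels. A gene at 1 CPM or more in every library is called measured, and 1 CPM corresponds to 8.42, 4.96 and 7.11 reads. Fibroblast markers were measured for 12 of 12 genes, with a summed level between 107284 and 118915 CPM. Epithelial markers were measured for 0 of 7 genes (summed 1.9 to 4.63 CPM, with EPCAM and CLDN4 at 0 reads), endothelial markers for 3 of 5 (9.47 to 27.3 CPM, KDR at 0) and leukocyte markers for 2 of 5 (6.05 to 15.8 CPM, PTPRC at 0). Skeletal muscle markers were measured for 0 of 3 genes (0.475 to 1.61 CPM, MYOD1 and PAX7 at 0), smooth muscle markers for 2 of 4 (3718 to 4511 CPM, nearly all from ACTA2, with MYOCD at 0) and cartilage and bone markers for 1 of 4 (193 to 238 CPM, nearly all from RUNX2). In RNA from whole cultures, fewer cells of a type and less RNA per cell cannot be told apart.

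The intracellular effectors among the members were all measured, whereas most WNT ligand genes had few or no reads. Of the 61 members, 35 were measured, or 57.4%, beside 34.6% of all listed genes. The listed genes include non-coding genes such as microRNA and tRNA genes, so 34.6% is not a share of protein-coding genes. All 8 of 8 cytoplasmic effectors and all 4 of 4 TCF/LEF factors in the table were among them, as were 12 of 14 receptors. Of the secreted inhibitors and modulators 4 of 10 were measured, of the R-spondin branch 2 of 7, and of the ligands 4 of 17, namely WNT2, WNT2B, WNT5A and WNT9A. A further 7 members had reads in every library but stood under 1 CPM in some, 9 had reads in some libraries and none in others, and 10 had 0 reads in every library. The 61 members together took 0.341, 0.345 and 0.378% of gene counts. AXIN2, ZNRF3, LGR6, WNT16 and WNT7B are not among the 61 and were not analysed here.

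**Figure D1:**
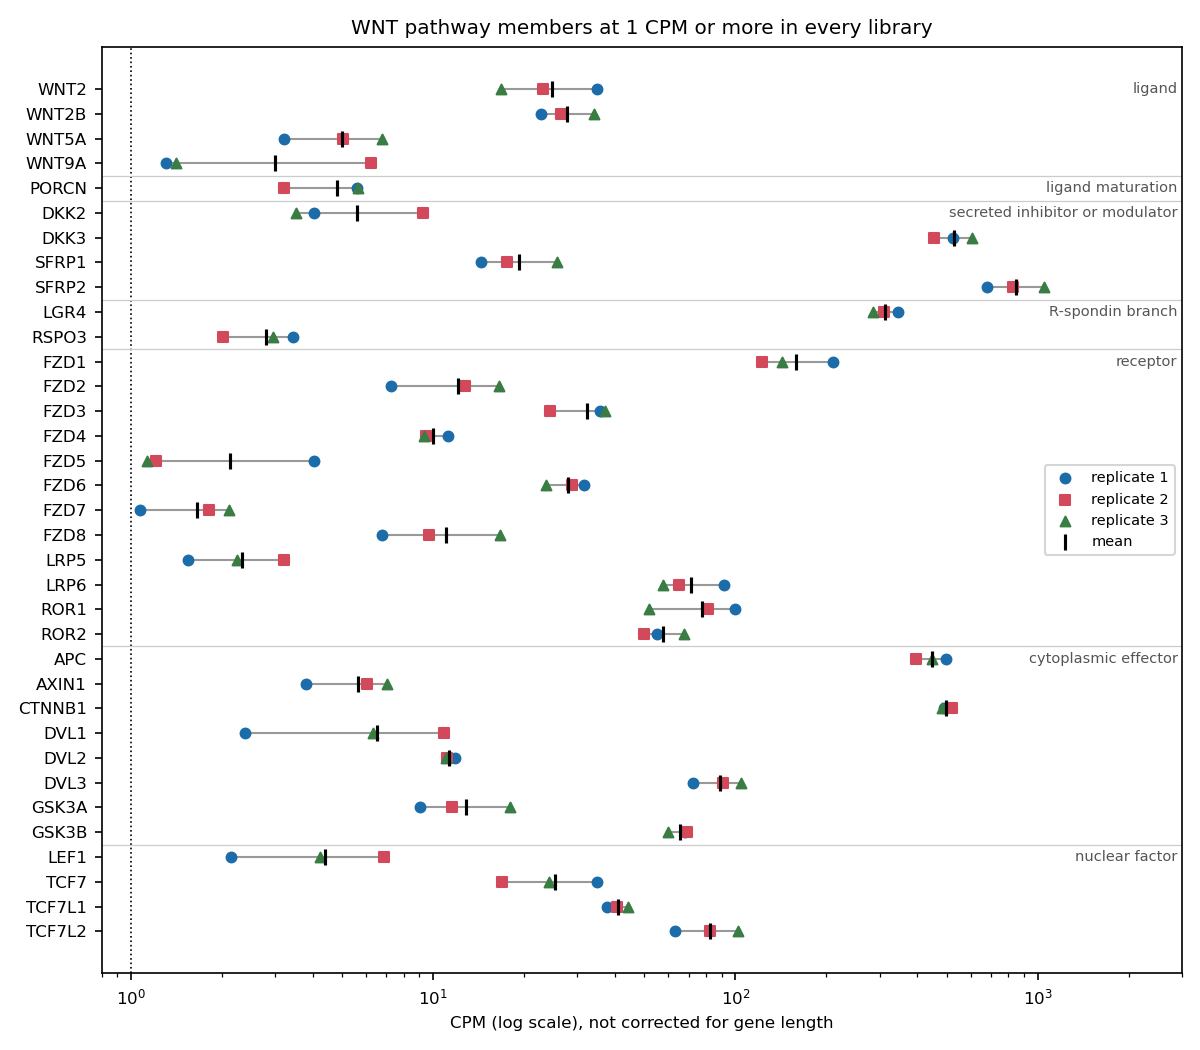
CPM on a log axis for the 35 measured members, grouped by role. Symbols are the 3 replicates, vertical ticks their mean, grey lines the range, and the dotted line is 1 CPM. The range is narrow for CTNNB1 (483 to 519 CPM) and wide for WNT9A (1.31 to 6.25 CPM).

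Among the ligands, WNT2 and WNT2B, closely related WNTs known for lung and mesenchymal development, carried most of the ligand reads. WNT2 stood at 34.8, 23.0 and 16.7 CPM, a mean of 24.8 ± 9.17 (SD, n = 3). WNT2B stood at 22.8, 26.4 and 34.1 CPM, a mean of 27.8 ± 5.74. The libraries thus order in opposite ways for these genes, with replicate 1 highest for WNT2 and lowest for WNT2B. The log2 ratio of WNT2 over WNT2B spanned 1.6 between replicates 1 and 3. Over all measured genes, replicate 1 was highest for 39.5% and lowest for 39.2%. Neither WNT2 nor WNT2B was called more variable than genes of its abundance in the test given below. In the RefSeq table WNT2B overlaps ST7L, which had 666, 273 and 272 reads, and the counting mode is not known, so reads from the shared stretch may be missing from WNT2B or assigned to it.

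WNT5A, a ligand known chiefly for the ROR and polarity branch, had 27, 25 and 48 reads, or 5.0 ± 1.77 CPM. Its paralog WNT5B had 9, 0 and 6 reads and overlaps FBXL14, another expressed gene. WNT9A had 11, 31 and 10 reads, or 2.99 ± 2.82 CPM, and its level rests on replicate 2, since without it the mean was 1.34 CPM. PORCN, the enzyme that adds the lipid that WNTs need for secretion, was measured at 5.58, 3.22 and 5.63 CPM.

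Several other ligands had few reads, spread unevenly over the libraries. WNT11, a ligand of the polarity branch, had 1, 0 and 25 reads, so nearly all of its reads came from replicate 3. WNT10B, known in other systems to restrain fat cell formation, had 14, 1 and 21 reads and was at 1 CPM or more in both deeper libraries. WNT3A, a classical activator of beta-catenin, had 0, 0 and 9 reads. All reads of WNT3A and nearly all of WNT11 thus fell in replicate 3, while WNT5B and WNT10B were lowest in replicate 2. WNT8B had 12, 3 and 6 reads, and WNT4, WNT7A and WNT10A had at most 2 reads in all libraries together.

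The ligand genes WNT1, WNT3, WNT6, WNT8A and WNT9B had 0 reads in every library. So did DKK4, SFRP5, RNF43, RSPO4 and FZD10. A count of 0 allows up to 3 reads, which is 0.356, 0.605 and 0.422 CPM in replicates 1 to 3, for counting error only and provided that reads could be assigned to the gene. Of these 10 genes, 8 had a measured gene as nearest protein-coding neighbour, taking only listed genes in RefSeq order. Examples are RNF43 beside SUPT4H1 (315, 222 and 363 reads) and WNT3 beside NSF (616, 322 and 551 reads). The share over all genes was not computed, and reads of a neighbour do not show that reads could be assigned to the gene itself. WNT1 lies between DDN and WNT10B, and WNT6 between PRKAG3 and WNT10A, neighbours that were all under 1 CPM in some library. WNT3A and WNT9A are neighbours too, with 0, 0 and 9 reads beside 11, 31 and 10 reads, and the libraries in which they had most reads differed.

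**Figure D2:**
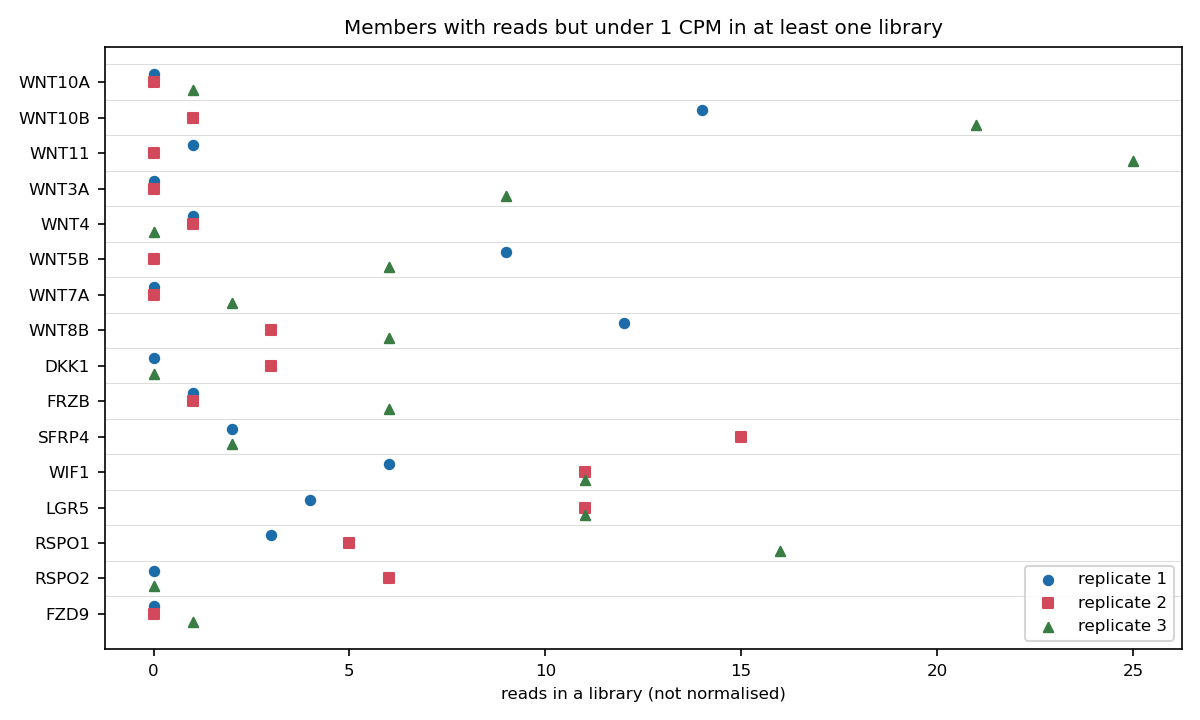
Reads per library, not normalised, for the 16 members that had reads but stood under 1 CPM in at least 1 library. Symbols are the 3 replicates. WNT11 has 25 reads in replicate 3 and at most 1 in the others, and SFRP4 has 15 in replicate 2 and 2 in each of the others.

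Secreted modulators held the largest read totals of any role in replicates 1 to 3, at 0.119, 0.135 and 0.168% of gene counts, mostly from SFRP2 and DKK3. These totals are not corrected for transcript length. SFRP2, a secreted protein with a frizzled-like domain that binds WNTs, stood at 677, 827 and 1046 CPM, a mean of 849.8 ± 185. SFRP1, of the same family, stood at 14.4, 17.5 and 25.7 CPM. Both genes were lowest in replicate 1 and highest in replicate 3, and their log2 ratio spanned 0.2 over the libraries. DKK3, a divergent dickkopf whose action on LRP receptors is less clear than that of its relatives, stood at 524, 455 and 605 CPM, a mean of 528 ± 74.7.

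DKK2, an LRP5/6 ligand that can inhibit WNT signalling, had 34, 46 and 25 reads, or 5.61 ± 3.18 CPM. Its level was 3.73 CPM without replicate 2. DKK1, the best known LRP5/6 blocker and in other systems a target of the pathway itself, had 0, 3 and 0 reads. The remaining modulators were low, with FRZB at 1, 1 and 6 reads, SFRP4 at 2, 15 and 2 reads and WIF1, a secreted WNT-binding protein, at 6, 11 and 11 reads. SFRP4 therefore passed 1 CPM in replicate 2 only, and WIF1 was measured if replicate 1 was left out.

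R-spondins strengthen WNT signals by binding LGR receptors and drawing the ligases RNF43 and ZNRF3 away from frizzleds. LGR4, the broadly expressed receptor of this group, stood at 344, 310.3 and 285 CPM, a mean of 313 ± 29.6 with a coefficient of variation of 9.44%. LGR5, a stem cell marker in intestine and hair follicle, had 4, 11 and 11 reads. RSPO3 had 29, 10 and 21 reads, or 2.80 ± 0.726 CPM, and its libraries did not differ by more than counting error. RSPO1 had 3, 5 and 16 reads, RSPO2 had 0, 6 and 0 reads, and RSPO4 and RNF43 had 0. LGR4 was thus at 285 CPM or more in every library, while 1 of the 4 R-spondin genes was measured, and LGR5 and RSPO1 would be counted as measured without replicate 1.

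All frizzled receptor genes except FZD9 and FZD10 were measured. FZD1 stood at 210.5, 122 and 143 CPM, a mean of 159 ± 46.1. FZD9 had 0, 0 and 1 reads. FZD1, FZD2, FZD7 and FZD8 have no introns in human, so for these genes the RefSeq gene span (4.15, 4.73, 2.21 and 3.57 kb) can stand in for transcript length, on the assumption that the bovine genes and the annotation used for counting do not differ much. Per kb of span, FZD1 stood at 50.7, 29.5 and 34.5 CPM per kb. FZD2 stood at 1.53, 2.68 and 3.48 CPM per kb, FZD8 at 1.9, 2.71 and 4.65, and FZD7 at 0.484, 0.822 and 0.956. FZD1 was above the other three in every library, by a log2 ratio of 3.94 ± 0.96 over FZD2, 3.69 ± 0.95 over FZD8 and 5.68 ± 0.89 over FZD7. With 3 replicates an exact sign-flip permutation test has 0.25 as its smallest p, and the ratios are described by sign, mean and SD. FZD8 was above FZD2 in every library, but by a log2 ratio of only 0.25 ± 0.21 that was 0.01 in replicate 2, too small a gap to rank these genes when the lengths are assumed.

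The other frizzleds are given without a ranking. FZD3, known for axon guidance, stood at 24.4 to 37.1 CPM over the libraries, and FZD6, known for hair and tissue polarity, at 23.6 to 31.5 CPM. FZD4, also the receptor of Norrin in vessels, stood at 11.2, 9.47 and 9.29 CPM, and these libraries did not differ by more than counting error. FZD5 had 34, 6 and 8 reads, and its mean of 2.12 CPM was 1.18 without replicate 1. FZD1, FZD4, FZD5 and FZD6 were highest in replicate 1, FZD2, FZD7 and FZD8 were lowest there, and FZD3 was lowest in replicate 2. Of these, FZD4 and FZD7 did not differ between libraries by more than counting error.

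The co-receptor LRP6 stood at 91.6, 64.9 and 57.7 CPM, a mean of 71.4 ± 17.9. LRP5 had 13, 16 and 16 reads, or 2.34 ± 0.844 CPM. LRP6 was highest and LRP5 lowest in replicate 1, but the libraries of LRP5 did not differ by more than counting error. The log2 ratio of LRP6 over LRP5 spanned 1.36, which was 0.27 without replicate 1. The receptor kinases ROR1 and ROR2 bind WNT5A and act in the polarity branch. ROR1 stood at 99.8, 81.0 and 51.6 CPM, a mean of 77.5 ± 24.3. ROR2 stood at 55.2, 50.0 and 67.4 CPM, a mean of 57.5 ± 8.94. Replicate 3 was thus lowest for ROR1 and highest for ROR2, and their log2 ratio spanned 1.23. Over all measured genes, replicate 3 was lowest for 34.7% and highest for 36.7%.

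CTNNB1, the gene of beta-catenin, varied little between libraries, at 489.6, 519 and 483 CPM, a mean of 497 ± 19.0 with a coefficient of variation of 3.83%. APC, the scaffold of the destruction complex, stood at 497, 395 and 447 CPM, a mean of 446 ± 51.0. AXIN1, the other scaffold, had 32, 30 and 50 reads, or 5.63 ± 1.66 CPM. The kinase GSK3B stood at 67.9, 68.9 and 59.8 CPM and did not differ between libraries by more than counting error. Its paralog GSK3A stood at 9.03, 11.5 and 18.0 CPM, highest in replicate 3, where GSK3B was lowest, and the log2 ratio of the paralogs spanned 1.14.

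The dishevelled proteins relay the signal from frizzled to the destruction complex. DVL3 stood at 72.5, 90.9 and 104 CPM, a mean of 89.0 ± 15.7. DVL2 stood at 11.8, 11.1 and 11.0 CPM, a coefficient of variation of 3.77%, and did not differ by more than counting error. DVL1 had 20, 54 and 45 reads, or 2.38, 10.9 and 6.33 CPM. DVL1 had the widest spread of the family, with a coefficient of variation of 65.2%, beside 17.6% for DVL3. Its mean of 6.53 ± 4.26 CPM was 4.30 without replicate 2. DVL1 was not called more variable than genes of its abundance (negative binomial test at the edgeR trend, adjusted p = 0.984). DVL3, too, differed between libraries by more than counting error. The log2 ratio of DVL3 over DVL1 spanned 1.66, which was 0.73 without replicate 2 and 0.93 without replicate 1. In the RefSeq table DVL1 overlaps TAS1R3, a symbol that has no row in the count table.

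Of the nuclear factors, TCF7L2 stood at 63.3, 82.6 and 102 CPM, a mean of 82.5 ± 19.1. TCF7L1, which often acts as a repressor, stood at 37.5, 40.7 and 44.2 CPM, within counting error. TCF7, also known from T cells, stood at 34.7, 16.9 and 24.2 CPM, a mean of 25.3 ± 8.93. LEF1 had 18, 34 and 30 reads, or 4.40 ± 2.36 CPM. TCF7 was highest in replicate 1, where LEF1, TCF7L1 and TCF7L2 were lowest.

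**Figure D3:**
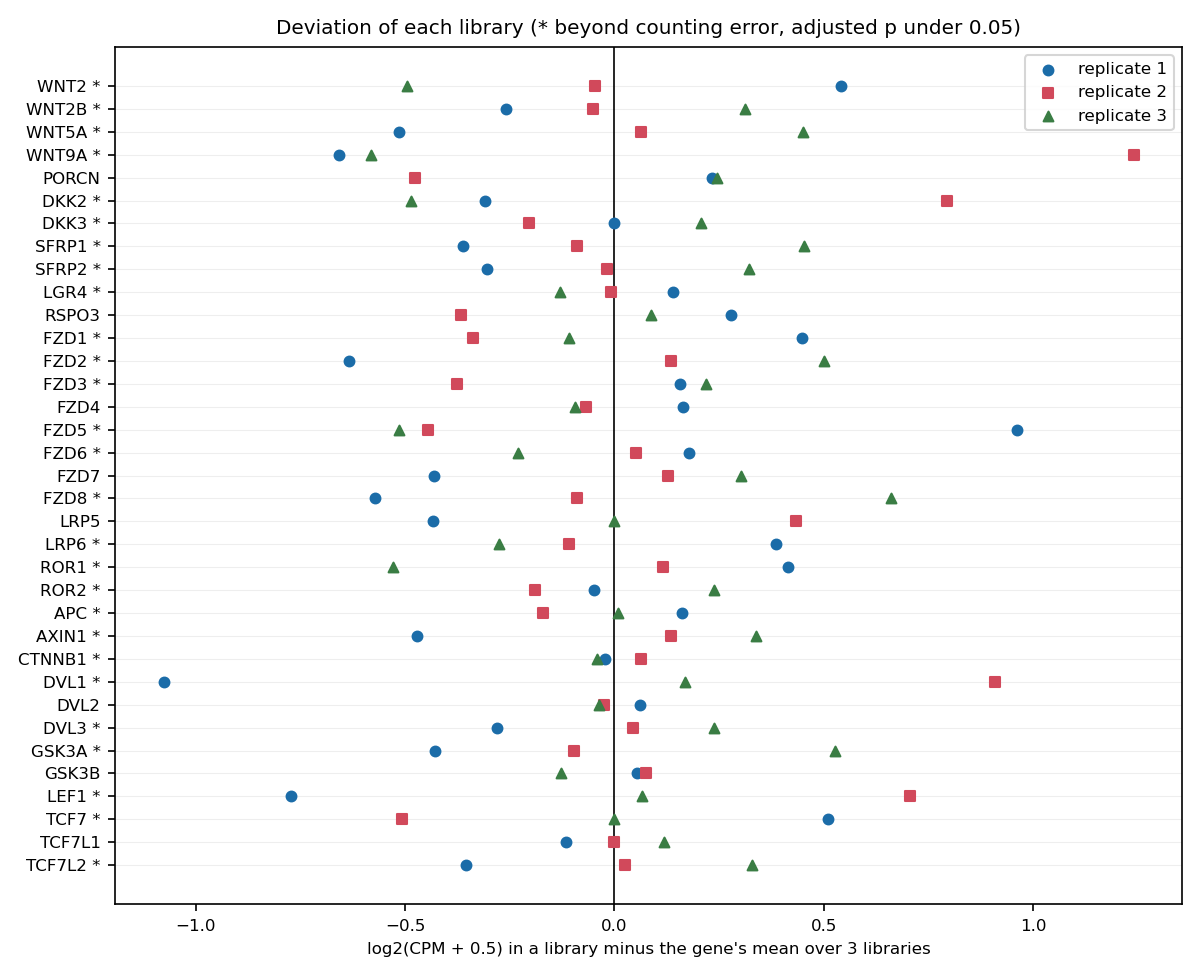
Difference, in log2(CPM + 0.5), of each library from the mean of the 3 libraries for the 35 measured members. Symbols are the replicates, and an asterisk marks genes whose libraries differed by more than counting error. DVL2 and CTNNB1 stay close to 0, while WNT9A and DVL1 spread widely, and for TCF7 and LEF1 replicates 1 and 2 lie on opposite sides.

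The spread between libraries was tested over all 11655 genes with a mean of 10 or more reads, 36 of which are members. No member was called more variable than genes of its abundance. By a negative binomial statistic at the edgeR trend with Benjamini-Hochberg adjustment 0 of 36 passed, beside 0.0172% of all tested genes. Since only 2 of 11655 genes passed with 3 libraries, the absence of calls says little about how variable the members are. At an unadjusted p under 0.05 there was 1 of 36 members, WNT9A (adjusted p = 0.864 with the edgeR trend), beside 5.47% of all tested genes, and with the DESeq2 trend there were 0 members at either threshold. Compared with counting error alone, 28 of 36 members differed between libraries, or 77.8%, beside 69.9% of all tested genes. The 8 members that did not pass were PORCN, RSPO3, FZD4, FZD7, LRP5, DVL2, GSK3B and TCF7L1. Missing this threshold does not show that their levels were equal, and PORCN, RSPO3, FZD7 and LRP5 had at most 47 reads in any library.

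The coefficient of variation of the 36 tested members had a median of 28.8% and ranged between 3.77 and 94.5%, beside a median of 24.6% over all tested genes. Among the 35 measured members, the highest library exceeded the lowest by a median of 1.72-fold, beside 1.56-fold over all measured genes. This fold was over 2 for 11 members, or 31.4%, beside 26.7% of all measured genes. It was over 3 for WNT9A (4.78), DVL1 (4.58), FZD5 (3.59) and LEF1 (3.2), all of which had at most 54 reads in any library. It was under 1.2 for 4 members, CTNNB1, DVL2, GSK3B and TCF7L1. The shares of all measured genes over 3 and under 1.2 were not computed, so these counts do not show that the members are unusual. Replicate 3 was the highest library for 16 of the 35 measured members (45.7%, beside 36.7% of all measured genes) and replicate 1 for 12 (34.3%, beside 39.5%). Replicate 1 was the lowest library for 16 (45.7%, beside 39.2%) and replicate 3 for 11 (31.4%, beside 34.7%). How often any 2 genes order the libraries in opposite ways was not computed.

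**Figure D4:**
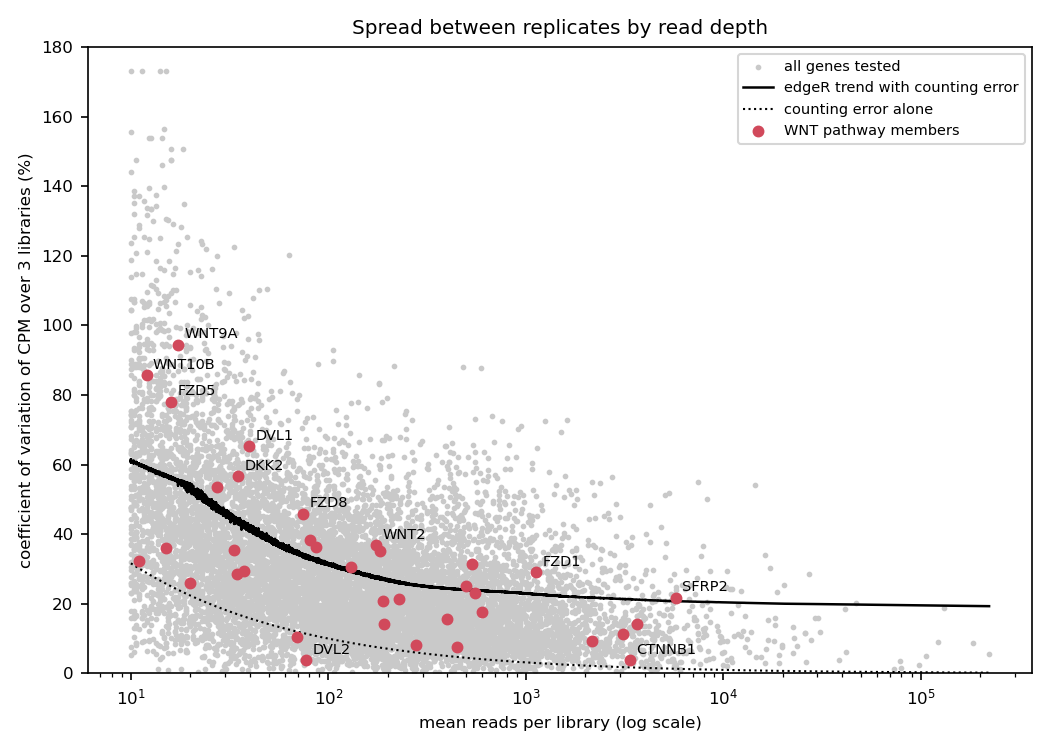
Coefficient of variation of CPM over the 3 libraries against mean reads per library on a log axis. Grey points are the 11655 tested genes, red points the 36 members, the solid line the edgeR trend with counting error and the dotted line counting error alone. Members lie within the cloud of all genes, with WNT9A at 94.5% and DVL2 at 3.77%.

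Other genes of the pathway were read from a list of 80, of which 76 are in the table and 56 were measured, or 73.7%. The share of all listed genes, non-coding genes included, was 34.6%. Of the 57 that were tested, 0 were called more variable than the edgeR trend after adjustment (beside 0.0172% of all tested genes), 1 had an unadjusted p under 0.05 (beside 5.47%), and the DESeq2 trend gave the same counts. WLS, which carries WNTs to the cell surface, stood at 55.4, 51.0 and 50.8 CPM. Of the other surface proteins 9 of 15 were measured, among them TPBG (131 ± 13.8 CPM), a WNT-modulating glycoprotein, and the glypican GPC4 (126 ± 11.3). Of the partners of the destruction complex 17 of 19 were measured, among them PPP2CA (200.2 ± 20.5), a catalytic subunit of protein phosphatase, and TNKS2 (142 ± 1.96), a tankyrase that marks AXIN for degradation. Of the nuclear cofactors 11 of 12 were measured, among them CDC73 (165 ± 18.0) and BCL9 (122 ± 17.7), a co-activator of beta-catenin. Of the polarity and calcium branch 14 of 19 were measured, among them the GTPase RHOA (826 ± 17.5) and the kinase MAP3K7 (245 ± 21.8).

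Of 18 genes chosen as common targets of beta-catenin in other systems, 16 are in the table, and AXIN2 and ZNRF3 are not. Of these 16 genes, 6 were measured, or 37.5%, beside 34.6% of all listed genes, non-coding genes included. These were the members TCF7 and LEF1 together with TWIST1 (81.8, 66.1 and 74.9 CPM), MYC (27.6, 20.8 and 42.4 CPM), MSX2 (17.2, 19.9 and 22.7 CPM) and CCND1 (6.06, 7.25 and 5.49 CPM), genes that many other signals also control. Below this level were the feedback genes NKD1 (0, 5 and 3 reads), NOTUM (0 reads), APCDD1 (2, 5 and 12 reads), RNF43, LGR5 and DKK1, and also SP5, BAMBI, TNFRSF19 and MSX1. Without cells at another level of WNT signalling, these values give transcript levels only and do not measure pathway activity.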

How the data were processed

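RNA of 3 replicates of BFF116 cells was amplified as cDNA by single-primer isothermal amplification, per the labels' protocols, and sequenced as single reads of 100 bases. The authors deposited raw counts of reads for each gene. The submitters' processing notes name HTSeq 0.6.1, TopHat2 2.0.10 and bcl2fastq 2.18.0.12. Genome build, annotation, counting mode and strandedness: not given in the sources used here. Summary rows naming no gene were left out: reads in no gene were 58.9 to 62.0% of each library's total, reads with several alignments 7.52 to 7.99%, and ambiguous reads 0.235 to 0.253%. CPM was computed in R 4.3.3 using edgeR 4.0.16, whose TMM factors were 0.978, 1.02 and 0.998.

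Spread was tested with a negative binomial Pearson statistic at edgeR's trended dispersion against chi-square with 2 degrees of freedom, over genes with a mean of 10 or more counts, with Benjamini-Hochberg adjustment and a threshold of 0.05. The comparison with Poisson counting error, and the per kb values of 4 frizzled genes, were added after the data were seen. No molecular identifiers are described, so PCR copies count as separate reads, and limits and this comparison cover counting error only. The tests were also run on counts simulated from the means of these data, and the outcome is not reported here. Members and lists were chosen with earlier results of these data known. All measured members and those with 10 or more reads in 1 library but under 1 CPM in another were named. So were the genes of each pathway list with the highest CPM, which is not corrected for length. The planned ratios and role shares per kb were not computed, because exon lengths were not at hand. Of 25 planned gene pairs 16 had both genes measured. The span of their log2 ratio over the libraries, with 0.5 CPM added to each level, is given instead. Gene length cancels in this span, while the added 0.5 CPM narrows it for genes with low levels. Spans not given above were 1.4 for TCF7L2 over TCF7, 1.34 for FZD1 over FZD7 and 1.23 for FZD4 over FZD5. They were 1.1 for TCF7L2 over LEF1, 0.96 for APC over AXIN1 and 0.88 for FZD6 over FZD3. The narrowest were 0.61 for DVL3 over DVL2, 0.45 for TCF7L2 over TCF7L1, 0.41 for CTNNB1 over APC and 0.4 for FZD2 over FZD7. All 61 symbols matched the RefSeq table of assembly ARS-UCD2.0, which was used for neighbours, overlaps and gene spans. Alternatives were DESeq2 1.42.0 size factors and trend, library totals, other thresholds and filters, and leaving out each replicate.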

Additional observations from a re-analysis of the deposited data

How the results depend on the processing

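No paired analysis was possible because the series has 1 group. The count of 35 measured members was the same with DESeq2 size factors and with library totals, 37 at 0.5 CPM, 31 at 2 CPM, 33 with 10 or more counts in every library, 41 at 1 CPM on the mean, and 35 to 38 when a replicate was left out. WNT10B entered without replicate 2, and LGR5, RSPO1 and WIF1 without replicate 1. No member was called more variable than the trend under the 7 alternatives with the edgeR trend or with the DESeq2 trend, and 0 to 3 members had an unadjusted p under 0.05. The 28 members that differed beyond counting error became 26 (78.8%, beside 70.5% of all tested genes) where each library needed 10 or more counts and 35 (68.6%, beside 51.7%) with no filter. They became 20 (51.3%, beside 36.4%) without replicate 1, 24 (64.9%, beside 61.6%) without replicate 2 and 19 (55.9%, beside 48.0%) without replicate 3. Over all genes these calls were 4151 of 11415 without replicate 1, against 8152 of 11655 with all replicates. Mean levels of the 35 measured members moved by less than 1 SD with DESeq2 size factors and library totals, and the spans of the 16 pair ratios did so with a pseudocount of 0.1 or 1. With 3 libraries, leaving 1 out says little about a mean or a span, but WNT9A moved 2.23-fold without replicate 2 and FZD5 1.8-fold without replicate 1. Shares and ratios per kb of exon were not run.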
